A study of Mus musculus with 12 samples.

Results

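The genes described here encode 10 receptors that bind, or have been proposed to bind, bile acids and related lipids, and the question was which of them were expressed at all in neutrophils of mouse bone marrow. They were taken by symbol from the table of read counts, in which each of the 10 occurred once among 29737 listed genes. They are the G protein-coupled receptors Gpbar1 (TGR5) and S1pr2, the bile acid receptor FXR (Nr1h4), the liver X receptors LXRβ (Nr1h2) and LXRα (Nr1h3), the retinoid X receptors Rxra and Rxrb, the vitamin D receptor Vdr, PPARγ (Pparg) and the glucocorticoid receptor Nr3c1. RNA-seq was performed on 12 samples of wild-type mouse neutrophils cultured for 24 h, with 3 samples each for phosphate-buffered saline (PBS, the control), taurocholic acid (TCA), glycocholic acid (GCA) and tauro-β-muricholic acid (Tβ-MCA). The labels give 200 μM for TCA and GCA and 10 μM for Tβ-MCA, whereas the study's methods give 1 concentration for all. Tβ-MCA was therefore compared with PBS only, and TCA and GCA with PBS and with each other. The methods name female C57BL/6 mice and neutrophils enriched from flushed marrow by a density medium and a magnetic bead kit, and neither they nor the labels say whether samples came from separate animals. The p-values below measure the spread between these samples, which may be technical.

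Bile acids are made from cholesterol in the liver and conjugated with taurine or glycine. FXR is the nuclear receptor through which liver and gut sense them, and it acts with an RXR partner on genes such as the bile salt export pump, while TGR5 is a surface receptor that raises cyclic AMP and S1PR2 is a sphingosine 1-phosphate receptor that conjugated bile acids can also activate. The LXRs sense oxidised cholesterol and, like PPARγ and the vitamin D receptor, bind DNA as a pair with an RXR, whereas the glucocorticoid receptor binds steroid hormones and works without RXR.

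The start regions of 4 of these genes are shown first, because they cover both ends of the range of levels described next and differ in their CG content. Each window runs 5′ to 3′ from 250 bases before to 50 bases after a start annotated by RefSeq on GRCm38.p6, in lower case with every CG dinucleotide in capitals. Nr1h2 (chr7:44553916-44554215, minus strand) and Rxra (chr2:27676951-27677250, plus strand) belong to the genes with the higher levels. Gpbar1 (chr1:74278350-74278649, plus strand) and Nr1h4 (chr10:89506609-89506908, minus strand) are those with the lowest.
Nr1h2: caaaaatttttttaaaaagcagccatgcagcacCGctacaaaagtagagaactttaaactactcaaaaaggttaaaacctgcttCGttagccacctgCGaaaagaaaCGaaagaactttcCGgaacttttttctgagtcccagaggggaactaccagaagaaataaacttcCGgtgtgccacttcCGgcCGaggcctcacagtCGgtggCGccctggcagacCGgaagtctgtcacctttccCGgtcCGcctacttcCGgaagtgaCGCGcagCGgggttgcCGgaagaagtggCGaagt
Rxra: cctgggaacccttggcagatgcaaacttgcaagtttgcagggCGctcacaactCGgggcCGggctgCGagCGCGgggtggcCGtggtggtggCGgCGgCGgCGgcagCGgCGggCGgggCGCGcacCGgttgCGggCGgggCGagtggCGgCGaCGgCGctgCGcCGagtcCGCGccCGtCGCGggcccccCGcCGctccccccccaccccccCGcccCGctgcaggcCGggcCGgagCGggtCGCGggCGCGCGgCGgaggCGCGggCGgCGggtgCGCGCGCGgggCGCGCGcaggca
Gpbar1: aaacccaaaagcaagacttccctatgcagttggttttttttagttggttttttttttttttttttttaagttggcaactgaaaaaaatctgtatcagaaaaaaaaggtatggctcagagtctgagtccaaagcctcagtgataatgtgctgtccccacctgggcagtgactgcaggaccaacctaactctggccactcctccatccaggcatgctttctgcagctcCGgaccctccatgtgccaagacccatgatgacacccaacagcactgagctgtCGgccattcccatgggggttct
Nr1h4: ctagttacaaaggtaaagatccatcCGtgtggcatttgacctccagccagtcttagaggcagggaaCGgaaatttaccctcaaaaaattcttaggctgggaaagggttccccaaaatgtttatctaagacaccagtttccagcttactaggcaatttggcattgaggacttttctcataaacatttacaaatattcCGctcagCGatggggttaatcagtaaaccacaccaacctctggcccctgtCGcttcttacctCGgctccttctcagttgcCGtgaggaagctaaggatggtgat
The windows held 19 CG dinucleotides in Nr1h2, 55 in Rxra, 2 in Gpbar1 and 7 in Nr1h4, beside a median of 7 over 32841 RefSeq promoter windows of the same length. More CG than in the window of Rxra stood in few others, since 99.7% of all windows had fewer. The windows of Nr1h4 and Rxra, and those of Vdr and Nr1h3 below, lie inside the genes as the count table places them. Their starts are thus not the outermost ones of these genes. A second RefSeq start of Rxra had 1 CG dinucleotide. Of the other receptors, Nr3c1 was not read. The windows held 18 in S1pr2, 15 in Vdr, 37 and 47 at the starts of Rxrb, 8 and 10 at those of Nr1h3, and 44, 13 and 2 at those of Pparg. Among listed genes whose first RefSeq window had at least 15 CG dinucleotides, 68% of 8089 had a mean level of at least 1 RPKM (the unit is explained below), against 25.2% of 3141 genes with 5 or fewer. S1pr2, Vdr and the outer start of Pparg were rich in CG and their genes were nevertheless below that level. The letters TATAAA, searched on both strands, were present in the middle start of Pparg and in no other of the windows read, beside 13.6% of all windows.

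The libraries held 32757389 to 41375925 counts on genes. Even counts predominated at low values, as when both mates of a read pair are counted, so a count of 0 was taken to allow up to 3 pairs, or 6 counts. This is 0.145 to 0.183 CPM (counts of a gene scaled to a common library total) and covers counting error only. All 11 neutrophil marker genes were at 1 RPKM or more in every sample, with a summed level of 38391 to 59357 CPM. The summed level of 14 monocyte and macrophage markers, none of which was at 0 throughout, was 1121 to 1145 CPM with PBS, 1003 to 1189 with TCA and 805 to 1104 with GCA, but 328, 387 and 886 in Tβ-MCA replicates 3, 4 and 5. The 6 markers of granulocyte progenitors behaved alike, with 282 to 293 CPM with PBS and 63.8, 82.8 and 225 with Tβ-MCA, and 4 of the 11 neutrophil markers fell with Tβ-MCA by the edgeR test described below, among them Ly6g (log2 fold change -0.99, adjusted p = 0.0208), where 3.18% of all tested genes fell. The samples numbered 3 in the 4 groups also stood together, with a sum of 5 basophil and mast cell markers of 36.8 to 49.3 CPM against 20.8 to 29.5 in the 8 others. In the monocyte and macrophage and the granulocyte progenitor sums, Tβ-MCA replicate 5 thus stood nearer to the other groups than to its own. Receptor results that rest on it are given with and without it, and those of other single genes only with it. Of 17 genes typical of other organs, including liver, 2 had at least 3 counts in every sample and 7 in none.

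The receptors spanned the range from well expressed to undetected, and the order was much the same in every sample. Levels of different genes were compared only as RPKM, which the authors deposited and in which the reads of a gene are scaled by the length of its merged exons and by the total of the sample. LXRβ, RXRβ, the glucocorticoid receptor and RXRα were the 4 of 10 with at least 1 RPKM in all 12 samples. These 4 together made up 95.8% to 97.8% of the summed RPKM of the 10 genes in each sample.

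**Figure D1:**
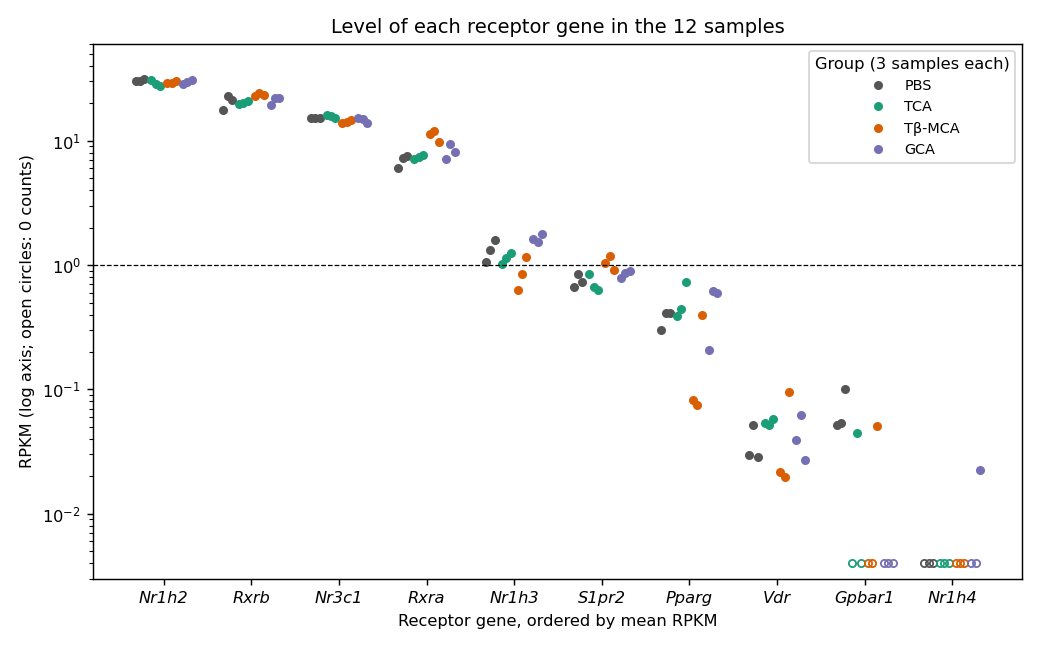
RPKM (log axis) of the 10 receptor genes in each of the 12 samples, ordered by mean, with the groups in colour, open circles for 0 counts and a dashed line at 1 RPKM. Nr1h2 to Rxra lie above the line in every sample, Nr1h3 and S1pr2 straddle it, and Gpbar1 and Nr1h4 are mostly at 0.

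Nr1h2 (chromosome 7, 44549616 to 44553951, GRCm38) was the most abundant, with 29.7 ± 1.14 RPKM (SD, n = 12), a lowest value of 27.7 and a highest of 31.5. Its mean exceeded that of 93.4% of listed genes. Rxrb (chromosome 17, 34031812 to 34038393) followed with 21.4 ± 1.86 RPKM and values from 17.6 to 24. Nr3c1 (chromosome 18, 39410545 to 39491301) had 15 ± 0.69 RPKM, with values from 13.9 to 16. Rxra (chromosome 2, 27676440 to 27762957) had 8.42 ± 1.83 RPKM and the widest relative range of the 4, from 6.06 to 12. The ranges of these neighbours did not overlap, and the order Nr1h2, Rxrb, Nr3c1, Rxra and then Nr1h3 was found in 12 of 12 samples.

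The next genes were present at low levels, and their ranges overlapped. Nr1h3 (chromosome 2, 91184061 to 91202834), which shares exonic bases with Gm13783 on the same strand so that reads there are uncertain, had 1.25 ± 0.34 RPKM, from 0.631 to 1.77. S1pr2 (chromosome 9, 20962361 to 20976781) had 0.838 ± 0.159 RPKM, from 0.626 to 1.18, and was below Nr1h3 in 10 of 12 samples. Pparg (chromosome 6, 115360951 to 115490399) had 0.388 ± 0.202 RPKM, from 0.0754 to 0.735. It was below S1pr2 in 11 samples. LXRβ was thus 17.5 to 46.2 times the level of LXRα per length of exon.

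Vdr was near the limit of what these libraries can count, and Gpbar1 and Nr1h4 were below it. Vdr (chromosome 15, 97854425 to 97910630) had 4 to 20 counts in each sample, which gives 0.0448 ± 0.0218 RPKM. It reached the limit of 6 counts in 10 of 12 samples. Gpbar1 (chromosome 1, 74278550 to 74279624), the gene of the TGR5 receptor, had 2, 2 and 4 counts with PBS, 0, 2 and 0 with TCA, 0, 0 and 2 with Tβ-MCA, and 0 in all 3 samples with GCA. No sample reached the limit of 6 counts, which corresponds to 0.135 to 0.17 RPKM for this gene. These are RNA counts only. The study also blotted TGR5 protein in mouse neutrophils and reported that it did not change significantly with Tβ-MCA. Nr1h4 (chromosome 10, 89454234 to 89533585), the gene of FXR, had 0 counts in 11 samples and 2 counts in GCA replicate 5. Its transcript was therefore not detectable at this depth in any group, with the limit of 6 counts at 0.063 to 0.0795 RPKM. Vdr was above Gpbar1 in 9 of 12 samples, and Gpbar1 above Nr1h4 in 5, so these neighbours did not separate.

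Against the wider nuclear receptor family the well-expressed receptors ranked high. Of 49 nuclear receptor genes listed for the purpose, 43 occurred in the table and 13 had a mean of at least 1 RPKM, while 8 stayed under 3 counts in every sample. Nr1h2, Rxrb and Nr3c1 had ranks 1, 2 and 3 of the 43, Rxra 7, Nr1h3 13 and Vdr 24. Between them stood Nr4a1, an immediate early receptor, at 12.4 RPKM, the retinoic acid receptor Rara at 10.3, Esrra at 9.35, and behind Rxra the fatty acid receptor Ppard at 8.34 and the thyroid hormone receptor Thra at 8.17. The PPAR present at the higher level was therefore Ppard, with Pparg at 0.388 and Ppara, at 0.00131 RPKM, under 3 counts in every sample. The third RXR gene, Rxrg, had a mean of 0.0049 RPKM, and the pregnane receptor gene Nr1i2, which also binds bile acids, 0.00546.

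**Figure D2:**
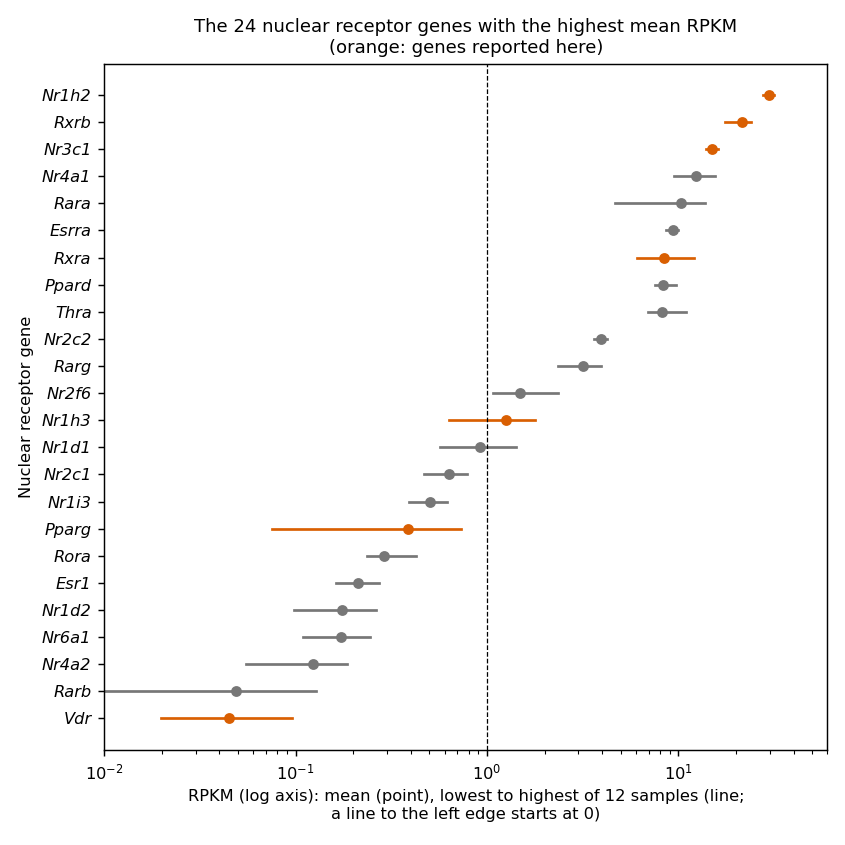
Mean RPKM (points) and range over 12 samples (lines) on a log axis for the 24 nuclear receptor genes with the highest means, with the receptors reported here in orange. Nr1h2, Rxrb and Nr3c1 occupy the first 3 places, and Vdr, at 0.0448 RPKM, is the lowest of those drawn.

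Other membrane receptors that bile acids or sphingosine 1-phosphate can reach were also measured. Among 7 such genes in the table, S1pr4 was at 8.59 RPKM and the muscarinic receptor Chrm3 at 2.25. S1pr1 was at 0.491 RPKM, S1pr5 at 0.264 and S1pr3 at 0.0101. S1pr2, at 0.838, was thus second to S1pr4 among the sphingosine 1-phosphate receptors by mean, though its range overlapped with that of S1pr1.

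The effect of each bile acid was then tested with edgeR's quasi-likelihood test and Benjamini-Hochberg adjustment over all 16761 genes that passed a filter on low counts. This filter passed 8 receptors but neither Gpbar1 nor Nr1h4, so no fold change is given for these. CPM here are scaled with edgeR's trimmed-mean factors. With Tβ-MCA, 1 of the 8 receptors, Rxra, passed an adjusted p of 0.05, where 7.62% of all tested genes did. In bulk RNA, fewer cells of a type and less RNA per cell cannot be told apart, which holds for every difference below.

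Rxra, the partner of most of the other nuclear receptors named here, rose with Tβ-MCA. Its level was 33.9, 40.2 and 41.5 CPM with PBS and 61.1, 63.5 and 52.5 CPM with Tβ-MCA. All 3 treated samples were above all 3 controls, and replicate 5 was the lowest of the treated samples. The log2 fold change was 0.62 (SE 0.10, 95% interval 0.40 to 0.83), which is 1.53-fold, with an adjusted p of 0.0206. By unadjusted p it had rank 5 of the 16761 genes. Among the samples numbered 3 the values were 33.9 CPM with PBS and 61.1 with Tβ-MCA, and the others were at 40.2 and 41.5 against 63.5 and 52.5. The direction held in all 13 alternative settings, with log2 fold changes of 0.53 to 0.69, but the adjusted p ranged from 5.53e-09 to 0.116 and was under 0.05 in 7 of them. It was 0.071 without PBS replicate 3, 0.0702 without PBS replicate 5, 0.0997 without Tβ-MCA replicate 3 and 0.116 without Tβ-MCA replicate 4, and in each of these 4 fits no gene of the whole table passed. Without Tβ-MCA replicate 5 the log2 fold change was 0.69 with an adjusted p of 0.000302. The monocyte and macrophage marker sum moved the other way in the same samples, as given above, and its part in the result was not tested.

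Rxrb, the more abundant RXR, did not pass. Its level was 66.8, 85.0 and 78.8 CPM with PBS and 82.1, 86.2 and 85.6 with Tβ-MCA, and the groups overlapped (log2 fold change 0.14, SE 0.08, adjusted p = 0.298 by edgeR). Rxra accordingly made up 24.3% to 26.3% of the RXR signal per length (Rxra plus Rxrb RPKM) with PBS and 33.5%, 33.3% and 29.3% with Tβ-MCA. The share was 26.7% to 27.0% with TCA and 26.8% to 30.0% with GCA. These shares are given side by side, since the doses in the labels differ.

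**Figure D3:**
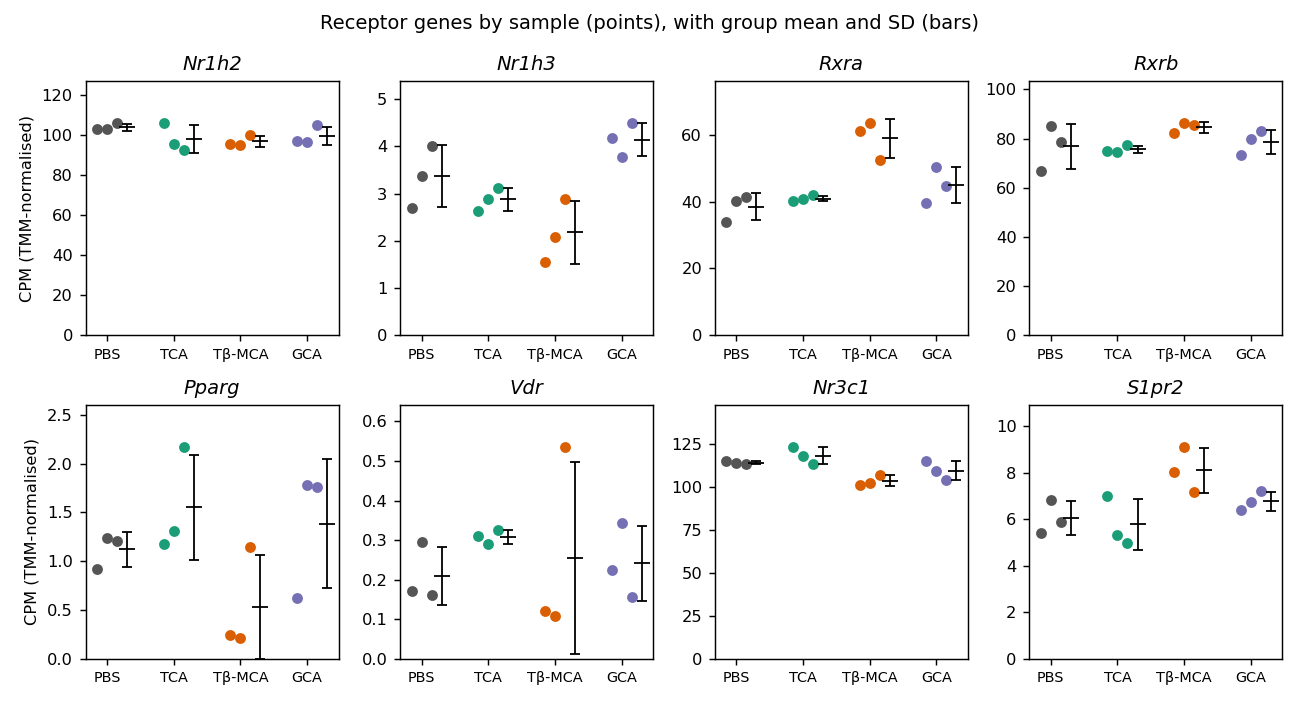
CPM, normalised by edgeR's trimmed-mean factors, of the 8 tested receptor genes in each sample (points), with group means and SD of 3 samples (bars) and axes from 0. Rxra is at 52.5 to 63.5 CPM with Tβ-MCA and at 33.9 to 41.5 with PBS, and in Pparg and Vdr Tβ-MCA replicate 5 lies apart from the other Tβ-MCA samples.

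The partners of RXR at lower levels gave a less uniform picture. Nr1h3 was at 2.70, 3.38 and 4.02 CPM with PBS and 1.56, 2.08 and 2.89 CPM with Tβ-MCA, where the highest treated sample, replicate 5, lay above the lowest control. The log2 fold change was -0.63 (SE 0.21) with an adjusted p of 0.0826 by edgeR. Pparg was at 0.918, 1.24 and 1.21 CPM with PBS and 0.239, 0.216 and 1.15 CPM with Tβ-MCA. Replicates 3 and 4 held 8 counts each and replicate 5 held 43, within the range of the controls, so the log2 fold change of -1.05 had an SE of 0.57 and an adjusted p of 0.281. In Vdr too, replicate 5 lay apart from the other Tβ-MCA samples, but above all controls. The counts were 6, 10 and 6 with PBS and 4, 4 and 20 with Tβ-MCA (log2 fold change 0.30, SE 0.61, adjusted p = 0.813 by edgeR).

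Leaving out Tβ-MCA replicate 5 changed these calls, and 4 of the 8 receptors passed, where 18% of all tested genes passed in that fit. Nr1h3 then had a log2 fold change of -0.89 (SE 0.21) and an adjusted p of 0.00939, and Pparg -2.29 (SE 0.51) and 0.00596 by edgeR. Vdr turned to -0.86 with an SE of 0.65 and an adjusted p of 0.41. S1pr2, the remaining call, was at 0.51 with an adjusted p of 0.0368. LXRα and PPARγ are known from macrophages. In the samples with the 2 lowest sums of monocyte and macrophage markers, Tβ-MCA replicates 3 and 4, both genes were also at their lowest of all 12 samples. This was not particular to these markers or genes. The sums of 5 eosinophil markers (78.5 and 54.1 CPM), of granulocyte progenitor markers and of neutrophil markers were also lowest in these samples. Nr3c1 was at its lowest there too, at 101 and 102 CPM. The part of any of these markers in the values was not tested.

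**Figure D4:**
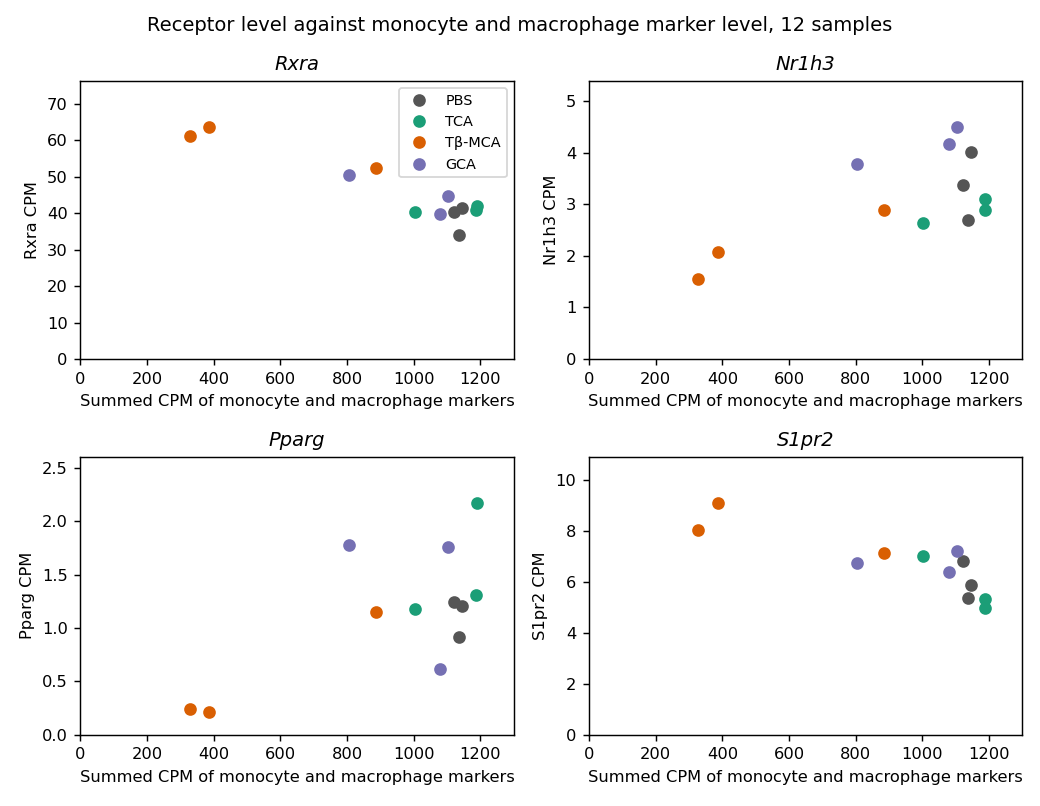
CPM of Rxra, Nr1h3, Pparg and S1pr2 in the 12 samples against the summed CPM of 14 monocyte and macrophage marker genes. Tβ-MCA replicates 3 and 4 lie apart at 328 and 387 CPM of markers, with high Rxra and S1pr2 and low Nr1h3 and Pparg, and Tβ-MCA replicate 5 lies at 886.

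S1pr2 was at 5.39, 6.83 and 5.88 CPM with PBS and 8.05, 9.10 and 7.15 with Tβ-MCA. The groups did not overlap, but the log2 fold change of 0.42 (95% interval 0.11 to 0.74) had an adjusted p of 0.0884 by edgeR. The most abundant receptors differed little between the groups. Nr1h2 was at 103, 103 and 106 CPM with PBS and 95.8, 95.2 and 100 with Tβ-MCA, a log2 fold change of -0.10 (95% interval -0.24 to 0.04, adjusted p = 0.353 by edgeR). Nr3c1 was at 115, 114 and 113 CPM with PBS and 101, 102 and 107 with Tβ-MCA, a log2 fold change of -0.14 (SE 0.06, adjusted p = 0.15 by edgeR). The groups did not overlap in 4 of the 8 receptors (Rxra, S1pr2, Nr1h2 and Nr3c1), beside 27% of all tested genes. The study's sequencing methods give thresholds of a p of 0.05, taken here as unadjusted, and a 2-fold difference. Another section of its methods names DESeq2 and adjusted p-values. By the former thresholds, applied to the edgeR test, 0 of the 8 receptors passed, beside 2.95% of all tested genes. An unadjusted p under 0.05 was found for 4 of the 8, as for 24.9% of all tested genes.

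With TCA, 0 of the 8 receptors passed by edgeR, as did 0% of all tested genes. None had an unadjusted p under 0.05, and DESeq2 also called none of them. Rxra was at 40.2, 40.8 and 41.9 CPM with TCA, with the lowest TCA sample below the highest control, and its log2 fold change of 0.09 had a 95% interval of -0.12 to 0.30. For S1pr2, at 7.01, 5.34 and 4.98 CPM, the interval was -0.38 to 0.25. That of Nr1h3 was -0.67 to 0.22, and that of Pparg, at 1.18, 1.31 and 2.17 CPM, -0.66 to 1.59. The intervals of Nr1h2, Rxrb and Nr3c1 lay within -0.22 to 0.17. Vdr, with 10, 12 and 12 counts, had the widest interval, -0.72 to 1.83. The groups overlapped in 8 of 8 receptors, where 9.67% of all tested genes had groups that did not. The study's thresholds passed 0 receptors and 0.465% of all genes.

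With GCA, edgeR and DESeq2 again called 0 of the 8 receptors, and edgeR called 0% of all tested genes. Rxra was the 1 receptor with an unadjusted p under 0.05 by edgeR, at 39.7, 50.4 and 44.8 CPM, which overlapped with the controls (log2 fold change 0.22, 95% interval 0.01 to 0.44, adjusted p = 0.999). Nr1h3 was at 4.17, 3.78 and 4.49 CPM with GCA, and its log2 fold change of 0.30 had a 95% interval of -0.14 to 0.73. For S1pr2, at 6.39, 6.73 and 7.21 CPM, the interval was -0.15 to 0.48. Pparg was at 0.620, 1.78 and 1.76 CPM and could not be placed more closely than -0.82 to 1.44. The groups overlapped in all 8 receptors, while in 9.55% of all tested genes they did not, and 0.531% passed the study's thresholds, as did 0 receptors.

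GCA and TCA are conjugates of the same bile acid, cholic acid, with glycine and with taurine, and both were used at 200 μM for 24 h. This 1 pair of compounds was compared over all genes, and 0 of the 8 receptors and 0% of all tested genes passed by edgeR, with no receptor called by DESeq2. Nr1h3 was at 2.64, 2.88 and 3.11 CPM with TCA and at 4.17, 3.78 and 4.49 CPM with GCA. Every GCA sample was above every TCA sample, and the fold of 1.44 had a 95% interval of 1.06 to 1.95 but an adjusted p of 1 by edgeR, with an unadjusted p of 0.0217. Rxra differed by a log2 fold change of 0.14 (95% interval -0.08 to 0.35) and S1pr2 by 0.23 (95% interval -0.08 to 0.55). For Nr1h2 the interval was -0.11 to 0.16 and for Nr3c1 -0.23 to 0.02, while those of Vdr (-1.60 to 0.89) and Pparg (-1.26 to 0.94) left room for a 2-fold difference in one direction. The GCA and TCA samples did not overlap in 1 of the 8 receptors, Nr1h3, and in 8% of all tested genes, while 0.442% passed the study's thresholds, with 0 receptors among them.

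**Figure D5:**
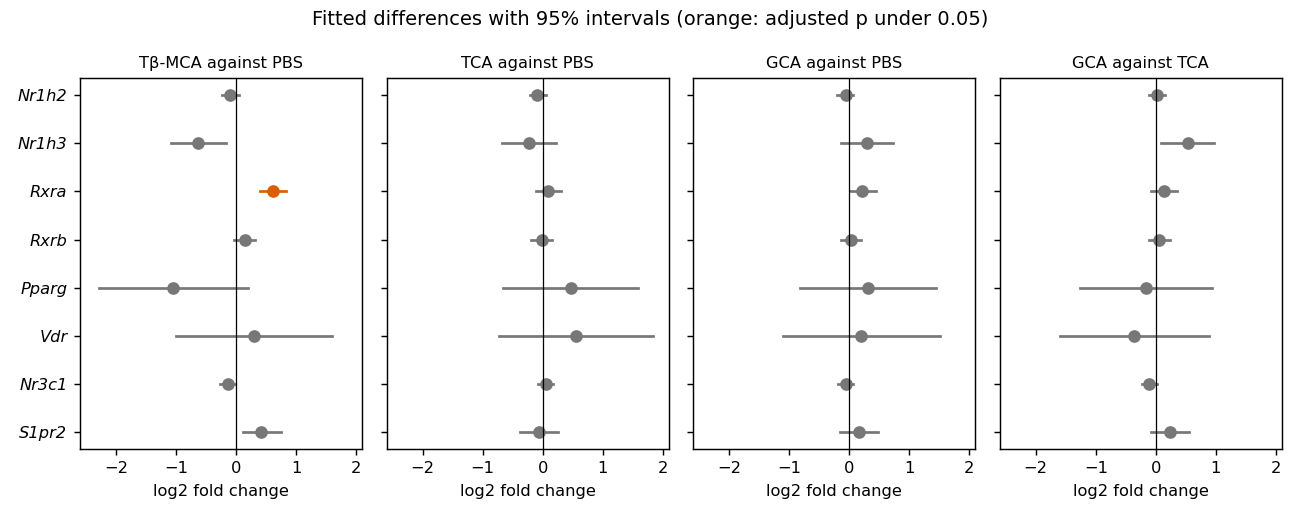
Fitted log2 fold changes (points) with 95% intervals (lines) of the 8 tested receptor genes in the 4 comparisons, with adjusted p under 0.05 in orange. Rxra with Tβ-MCA is the 1 orange point, and the intervals of Pparg and Vdr are the widest in each comparison.

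Genes known to respond to these receptors were counted next, from lists drawn up from textbook knowledge. The lists were chosen with earlier results of these data known, so the counts from them are descriptions and not independent tests. For FXR, 4 of 7 listed targets occurred in the table and 2 were tested, with none called in any comparison. Of all tested genes 7.62% were called with Tβ-MCA and 0% in the other comparisons. The phospholipid pump gene Abcb4 was at 0.0974 RPKM, the bile salt export pump gene Abcb11 at 0.0841 and Slc51a, a subunit of an intestinal bile acid exporter, at 0.0293. For the vitamin D receptor, 3 targets occurred in the table and none passed the filter on low counts, with S100g at 0.0277 RPKM, Trpv6 at 0.0023 and Cyp24a1, which degrades vitamin D, at 0.00137. Of 15 listed LXR targets, 10 had a mean of at least 1 RPKM. With Tβ-MCA none of the 13 tested was called, beside 7.62% of all tested genes. An unadjusted p under 0.05 by edgeR was found for 1 of them, beside 24.9% of all tested genes. Among the LXR targets Apoe, an apolipoprotein that macrophages make abundantly, was at 735 RPKM on average and Smpdl3a at 25.2. Mylip was at 9.48 and the cholesterol exporters Abcg1 at 1.46 and Abca1 at 0.936. Their log2 fold changes with Tβ-MCA went both ways around a median of 0.00, from -1.20 for Lpl, -0.68 for Mertk and -0.61 for Apoe to 0.39 for Mylip and 0.53 for Scd2. Lpl, Mertk and Apoe were lowest in Tβ-MCA replicates 3 and 4, those with the lowest sums of monocyte and macrophage markers, whose part in this was not tested. Of 7 tested PPAR targets, Cpt1a, which brings fatty acids into mitochondria, rose with Tβ-MCA (log2 fold change 0.61, SE 0.16, adjusted p = 0.0392 by edgeR). The others were not called, and 4.44% of all tested genes rose. The lipid droplet gene Plin2 was the most abundant of them at 57.2 RPKM, followed by Acaa2 at 14.7 and Cpt1a at 10.8.

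Several targets of the glucocorticoid receptor were abundant, though the LXR target Apoe was higher, at 735 RPKM. Anxa1 was at 546 RPKM, Nfkbia at 240, Dusp1 at 163 and Fkbp5 at 134. With Tβ-MCA, 3 of 12 tested fell and none rose, where 3.18% of all tested genes fell. These were the MAP kinase phosphatase gene Dusp1 (log2 fold change -0.67, SE 0.14, adjusted p = 0.0225), Klf9 (-0.36, SE 0.09, adjusted p = 0.034) and Nfkbia, an inhibitor of NF-κB (-0.26, SE 0.07, adjusted p = 0.0347). The median log2 fold change of the 12 tested targets was -0.28. Fkbp5, a classical target of this receptor, was at -0.05 (SE 0.06, adjusted p = 0.647 by edgeR). Several of these genes, Dusp1 and Nfkbia among them, also answer to other signals.

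Downstream of the membrane receptors, 13 of 22 listed genes of the cyclic AMP pathway had a mean of at least 1 RPKM. The same held for 9 of 14 listed genes around sphingosine 1-phosphate, while the kinase gene Sphk1 was at 0.00889 RPKM. The G protein gene Gnas, through which TGR5 acts, was at 24.2 RPKM, the adenylyl cyclase gene Adcy7 at 16.3 the transcription factor Atf1 at 24.6 and the protein kinase A subunit Prkar1a at 72.9. Of 20 tested genes of the cyclic AMP pathway, 2 rose with Tβ-MCA, the cyclase Adcy9 (log2 fold change 0.63, SE 0.12) and the kinase subunit Prkacb (0.59, SE 0.10), each with an adjusted p of 0.0206 by edgeR, and none fell. Of all tested genes 4.44% rose. Of 12 tested genes around sphingosine 1-phosphate, the lyase gene Sgpl1 rose (0.26, SE 0.07, adjusted p = 0.0337) and none fell. The G protein genes Gnai2, at 576 RPKM, and Gna13, at 13.2, which S1P receptors use, were not called. Among the nuclear receptor genes outside the 10, Thra (0.48, SE 0.08, adjusted p = 0.0206) and the clock repressor Nr1d1 (0.71, SE 0.21, adjusted p = 0.0489) rose with Tβ-MCA, so that 3 of 26 tested were called with Rxra included, beside the 7.62% of all tested genes. Every call in these lists was lost in the 4 fits without PBS replicate 3 or 5 or Tβ-MCA replicate 3 or 4, in which no gene passed, and no gene of these lists was called in the other 3 comparisons.

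The genes whose pattern over the 12 samples was most like that of a receptor were found by Pearson's r of log2 CPM over 16760 other tested genes, as a description in which all points share their libraries. For Nr1h3 these were Atp6v1g2 (r = 0.952), Gm43579 (r = 0.940) and the cell cycle inhibitor Cdkn1a (r = 0.925). For Nr3c1 they were Exoc6 (r = 0.944), Snhg7 (r = 0.919) and Gm45014 (r = 0.915). The rule also named Gpbar1, which had too few counts for a pattern.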

How the data were processed

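RNA-seq of 12 samples (4 groups of 3) was analysed from the table of raw counts per gene that the authors deposited, 32757389 to 41375925 per sample. Per the submitters' processing notes, reads were trimmed with Trimmomatic 0.36, aligned with STAR 2.5.3a to GRCm38 and counted with featureCounts (Subread 1.5.1). The strand setting is not given in the sources used here. Even counts predominated at low values, with at least 2.93 times as many genes at 2 counts as at 1. The authors also deposited RPKM values, which recalculation from the counts matched within a relative difference of 1.3e-06.

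Groups came from the sample labels. The deposited tables name the GCA columns GA, which were taken as GCA through the series' design text and the replicate number, and every GCA value rests on this. Counts were tested with edgeR 4.0.16 in R 4.3.3 (filterByExpr, TMM, robust quasi-likelihood fit over all 12 samples, Benjamini-Hochberg adjustment, threshold 0.05). Nr3c1 sequence was not printed. The receptors and gene lists were chosen with earlier results of these data known. Genes were named by rule: every receptor, from each list up to 4 genes with the lowest p among those past the threshold against PBS and the 3 with the highest mean RPKM, and the 3 genes most like Gpbar1, Nr1h3 and Nr3c1. Marker lists are given mainly as sums, and other genes were named for their known role after their values were seen. Some genes that the rule names are not reported here. Scripts were checked on simulated data. Alternatives were DESeq2 1.42.0, other scalings, no filter, limma 3.58.1 on log2(RPKM + 1), the 2 compared groups alone, a replicate block, the study's thresholds and leaving out each replicate.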

Additional observations from a re-analysis of the deposited data

How the results depend on the processing

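With Tβ-MCA against PBS, the number of receptors called (1) became 2 with DESeq2, 3 without the filter on low counts, and 0 with limma, with the 2 groups fitted alone and with the study's thresholds. It ranged from 0 to 4 over the fits that left out 1 replicate. Over all genes the count of 1278 became 2079 with DESeq2, 2406 without the filter, 0 with limma, 0 with the 2 groups alone and 494 with the study's thresholds, and 0 to 3076 when 1 replicate was left out (0 without PBS replicate 3 or 5 or Tβ-MCA replicate 3 or 4, 168 without PBS replicate 6, 3076 without Tβ-MCA replicate 5). The counts of 0 over all genes became, with TCA, 1 with DESeq2, 37 without the filter, 3 with limma and 78 with the study's thresholds, with GCA, 36 without the filter and 89 with the study's thresholds, and for GCA against TCA, 42, 1 with limma and 74. The cause was not tested. The count of 4 receptors at 1 RPKM or more in all samples was 6 for 0.5 RPKM or for 10 counts.

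No source says what the sample numbers share, and the methods name no pairing, so the main fit did not pair the samples. Over 15 pairs of samples with the same number in different groups, deviations correlated with a mean r of 0.19 (0.06 to 0.33), and over 39 pairs with different numbers with -0.07. The 4 samples numbered 3 stood together across the groups, with r of 0.197 to 0.326 in their 6 pairs, while 23 of 24 pairs of such a sample with another number were negative. Deviations were taken from the mean of each group, so negative values between different numbers follow in part from positive ones within a number. With the replicate number as a block, 1 receptor and 1498 genes were called with Tβ-MCA, Rxra at 0.63 with an adjusted p of 0.00862, and 3 genes with TCA. The block changed the call or direction of none of 32 receptor values.

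Of 410 values of single receptors under an alternative, 387 kept their direction and side of the threshold, 6 passed it, 6 lost it and 11 changed sign. None of these 11 was called, and each came from leaving out 1 replicate. Over the fits that left out 1 replicate, the log2 fold change of Vdr with Tβ-MCA ran from -0.86 (without Tβ-MCA replicate 5) to 0.67. With TCA, that of S1pr2 ran from -0.22 to 0.03 (without PBS or TCA replicate 5) and that of Rxrb from -0.12 to 0.05 (without PBS replicate 5). With GCA, that of Rxrb ran from -0.06 (without PBS replicate 3; -0.01 without GCA replicate 5) to 0.11 and that of Vdr from -0.13 (without GCA replicate 4) to 0.52. For GCA against TCA, Nr1h2 ran from -0.02 (without TCA or GCA replicate 5) to 0.08 and Pparg from -0.37 to 0.19 (without GCA replicate 3; 0.16 without TCA replicate 5). Depth limits Vdr, Gpbar1 and Nr1h4, with at most 20, 4 and 2 counts.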

Other observations

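Of 22 listed genes that make and carry bile acids, 14 occurred in the table, 8 were tested and none was called in any comparison. Of all tested genes 7.62% were called with Tβ-MCA against PBS and 0% in the other comparisons. Cyp7a1, the rate-limiting enzyme of bile acid synthesis, was at 0.00232 RPKM, and Baat, which conjugates bile acids with taurine or glycine, at 0.00473. The hepatic uptake carrier Slc10a1 was counted in every sample, with 20 to 51 counts and a mean of 0.65 RPKM. The exporters Abcc4 (3.45 RPKM) and Abcc3 (1.31 RPKM) and the enzymes Hsd3b7 (4.14 RPKM) and Cyp27a1 (1.91 RPKM), which act on sterols in many tissues, were at higher levels.

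Coregulators through which nuclear receptors act were expressed widely, with 14 of 15 listed genes at a mean of at least 1 RPKM. The corepressor Ncor1 was at 63.6 RPKM, the coactivators Ep300 at 33.9 and Ncoa3 at 25.0, while Ppargc1a, a partner of PPARγ in brown fat and muscle, was at 0.00832. With Tβ-MCA against PBS none of the 14 tested was called by edgeR, with 6 at an unadjusted p under 0.05, as were 24.9% of all tested genes, and the lowest adjusted p at 0.0504 for Hdac3 (log2 fold change 0.32, SE 0.09).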
